A study of Mus musculus with 3 samples.

Results

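Smooth muscle-like cells were picked out of 2 plates of cultured mouse embryonic kidney cells by the transcripts of Myh11, the heavy chain of smooth muscle myosin, and Actg2, the gamma actin of visceral smooth muscle. A well was a member when it held at least 2 counts of these 2 genes together, and 51 of the 500 wells kept as cells on the cultured plates were members, of 837 kept wells in the whole study. Transcripts of single cells were counted by SORT-seq, a method that sorts 1 cell into each well of a 384-well plate and tags every transcript molecule with an identifier, so that copies made during amplification are counted once. The study traces the descendants of cells that use Lgr6, which encodes an R-spondin receptor that strengthens Wnt signals, in the developing kidney.

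The 3 plates were 1 per group, all of C57BL/6 mice with an LGR6-EGFP-IRES-CreERT2 allele, which by its name ties a green reporter and a drug-inducible Cre recombinase to the Lgr6 locus. Kidneys of E12.5 embryos cultured as explants for 5 days gave the first (the E12.5 plate), and kidneys of E11.5 embryos, cultured for 7 days by the title and 5 days by the stage label, gave the second (the E11.5 plate). Both of these carried ROSA26-tdTomato, a red reporter switched on by Cre, as well. The third plate held cells of E11.5 kidneys without culture and without the tdTomato allele. Medium contained 10% fetal calf serum, and the sort gate, the induction of Cre and the number of embryos pooled are not given in the sources used here. Embryo stage, culture and plate differed together between the cultured plates, so these cannot be told apart, and cells of 1 plate are not replicates. Ratios therefore come without a test. Their 95% intervals cover counting error only.

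Smooth muscle cells contract when the kinase encoded by Mylk phosphorylates the myosin light chain, so that myosin pulls on filaments of smooth muscle actin bound by tropomyosins, calponin and transgelin. In the mouse urinary tract the muscle of the ureter arises from Tbx18-expressing mesenchyme under hedgehog and BMP4 signals, while mural cells of renal vessels come from stroma. Many contractile genes are driven by serum response factor and its cofactor myocardin, which act at a DNA element called the CArG box.

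The CArG box (CC, 6 bases of A or T, GG, searched on both strands) was looked for in the 250 bases before the start of 30 genes, the 14 contractile genes at least 2-fold higher on both plates and the 20 genes named further on as highest in the members, with 4 in both sets. All 30 were thus picked for being higher in the members. The 14 were also taken from a list of contractile genes, a class known for this element, so a share above that of all genes says nothing about the members. RefSeq promoters of the build GRCm38.p6 were at hand for 23 of the 30, and 4 of them (17.4%) held the element, against 1.62% of all genes in that table and 482 of its 32851 promoters (1.47%). The 4 are shown as the genes of this set that hold the element, with the box in capitals. They belong to Myl9 (chr2:156775214-156775463, plus strand), Fhl1 (chrX:56779433-56779682, plus strand), Myl6 (chr10:128493010-128493259, minus strand) and Vcl (chr14:20929148-20929397, plus strand).
Myl9: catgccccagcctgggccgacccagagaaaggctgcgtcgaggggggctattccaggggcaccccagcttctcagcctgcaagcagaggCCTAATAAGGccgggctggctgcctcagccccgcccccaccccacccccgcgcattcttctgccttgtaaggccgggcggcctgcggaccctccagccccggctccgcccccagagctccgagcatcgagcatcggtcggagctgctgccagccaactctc
Fhl1: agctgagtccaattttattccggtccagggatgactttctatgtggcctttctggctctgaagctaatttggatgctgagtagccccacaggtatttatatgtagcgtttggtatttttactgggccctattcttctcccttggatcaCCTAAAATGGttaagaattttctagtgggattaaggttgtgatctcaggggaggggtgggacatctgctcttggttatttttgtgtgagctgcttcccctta
Myl6: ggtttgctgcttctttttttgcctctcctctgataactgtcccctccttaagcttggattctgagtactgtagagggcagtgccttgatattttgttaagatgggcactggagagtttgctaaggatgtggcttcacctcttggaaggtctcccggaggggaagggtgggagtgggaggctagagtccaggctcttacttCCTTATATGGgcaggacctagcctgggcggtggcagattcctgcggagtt
Vcl: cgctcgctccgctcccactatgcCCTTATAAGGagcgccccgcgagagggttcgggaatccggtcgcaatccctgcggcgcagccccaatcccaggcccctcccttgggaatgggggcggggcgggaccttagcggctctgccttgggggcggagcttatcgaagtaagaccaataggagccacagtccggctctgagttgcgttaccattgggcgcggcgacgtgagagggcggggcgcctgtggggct
The box began 161, 102, 50 and 227 bases before the start in this order. Fhl1 and Myl6 each have another listed promoter without the element in this window. The promoters of Acta2 and Cnn1 held no match to this exact pattern in the window, and looser forms of the box were not searched. A match describes letters only, and whether a factor binds there was not measured.

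The E12.5 plate had 32 members among 200 kept wells (16.0%, exact binomial interval 11.2 to 21.8), and the E11.5 plate had 19 among 300 (6.33%, 3.86 to 9.71). By the same rule 1 of 337 uncultured wells (0.297%, 0.00751 to 1.64) was a member, with 4 counts of Actg2. Members thus lay almost wholly on the cultured plates, which also differ from the uncultured plate in genotype and sequencing run. Members were set against the wells of their own plate with 0 counts of both genes, 124 on the E12.5 plate and 241 on the E11.5 plate, called zero wells here. The 44 and 40 wells with 1 count lay just outside the rule and were used in neither. Members were deeper than zero wells, with medians of 11338 against 8858 counts of nuclear genes on the E12.5 plate and 12316 against 8860 on the E11.5 plate. They also held more genes per well, with medians of 4349 against 3836 on the E12.5 plate and 4511 against 3764 on the E11.5 plate. A deeper well passes a minimum of 2 counts more easily, so depth moves with membership, and its part in each result was not tested. On the E12.5 plate 5 members and no zero well, and on the E11.5 plate 4 members and 3 zero wells, held over 3 times the plate's median count.

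The members were far from uniform in the genes that chose them. Counts of Myh11 plus Actg2 ran over a range of 2, 3.5 and 365 (lowest, median and highest) on the E12.5 plate and of 2, 4 and 242.5 on the E11.5 plate. Exactly 2 counts were found in 12 and 7 members. At the other end 10 members of the E12.5 plate and 7 of the E11.5 plate had at least 10 counts, 5.0% and 2.33% of the kept wells, and these 17 wells held 89.4% and 84.9% of all Myh11 and Actg2 counts of their plates. Both genes were found in 21 of 32 members of the E12.5 plate, Myh11 alone in 9 and Actg2 alone in 2; the E11.5 plate had 10, 5 and 4 such members. Summed over members Actg2 stood at 1123 CPM (counts per 1000000 counts of nuclear genes) and Myh11 at 749.8 CPM on the E12.5 plate, and at 845 and 448 CPM on the E11.5 plate, where 68.9% of the Actg2 counts lay in 1 well. These values follow from the rule and are given as a description.

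**Figure D1:**
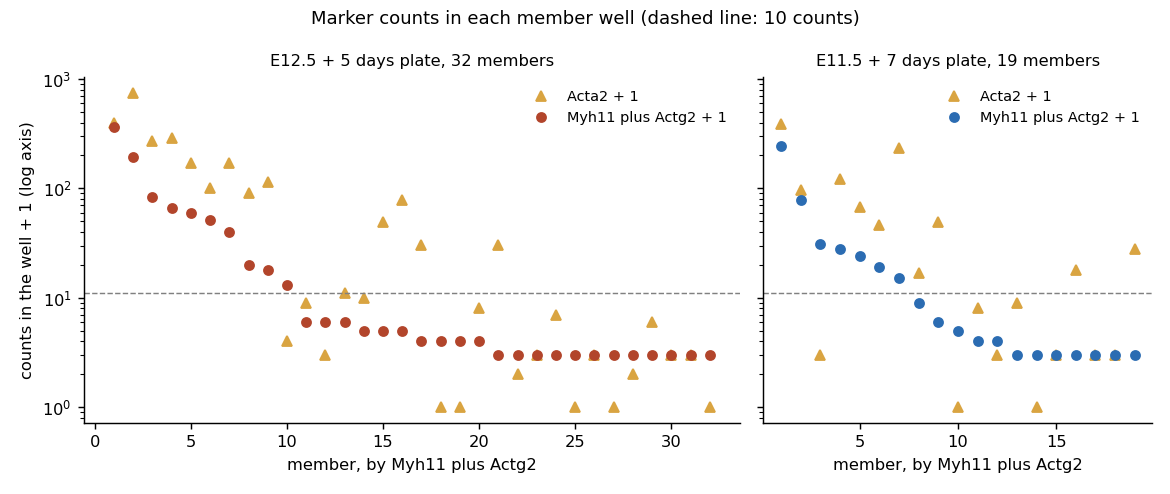
Counts of Myh11 plus Actg2 (circles) and of Acta2 (triangles) in every member, each with 1 added, on a log axis; members run from the highest to the lowest circle, with 32 of the E12.5 plate on the left and 19 of the E11.5 plate on the right. The dashed line marks 10 counts: 10 and 7 members lie above it, and Acta2 is high in nearly all of these and scattered down to 0 in the others.

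The name was set against contractile genes that the rule did not use. Their summed levels were high in the wells with at least 10 counts of Myh11 plus Actg2 and closer to the zero wells in the other 34 members. Not every one of these 17 wells followed: a well of the E12.5 plate with 12 counts of Myh11 plus Actg2 had 3 counts each of Acta2 and Myl9 and 0 of Cnn1 among 17508 counts. A well of the E11.5 plate with 30.1 counts of Myh11 plus Actg2 had 2 counts of Acta2 and 0 of Cnn1, beside 21.1 of Myl9. Acta2, the alpha actin of smooth muscle, stood at 10315 CPM in wells of the E12.5 plate with at least 10 counts of Myh11 plus Actg2, at 315 CPM in wells with 5 to 9 and at 988 CPM in wells with 2 to 4. Wells with 1 count had 295 CPM and zero wells 226 CPM. The corresponding levels on the E11.5 plate were 5670, 649 and 693 CPM, with 448 CPM at 1 count and 357 CPM in zero wells. Of the 5 classes, those from 1 to 9 counts thus lay within 5-fold of the zero wells for this gene, and the class of 10 or more stood far above. Cnn1, calponin, followed the same course, at 391, 15.8, 35.8, 13.5 and 6.43 CPM from the highest class to the lowest on the E12.5 plate. Cnn1 on the E11.5 plate had 299 CPM in the highest class, 0 in wells with 5 to 9 counts, 20.7 in wells with 2 to 4, 6.504 at 1 count and 4.61 in zero wells. Tagln, the actin-binding protein transgelin, departed from this on the E11.5 plate, where wells with 2 to 4 counts already had 1120 CPM, against 167 CPM in zero wells. Collagen did not rise in the order of the classes on either plate, although its highest class stood above the zero wells on both. Col1a1 was at 8772 CPM in the highest class and 6055 CPM in zero wells of the E12.5 plate, with 12955 CPM in wells with 5 to 9 counts. On the E11.5 plate the wells with 5 to 9 counts stood below the zero wells instead. That middle class holds 3 wells on the E12.5 plate and 2 on the E11.5 plate.

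**Figure D2:**
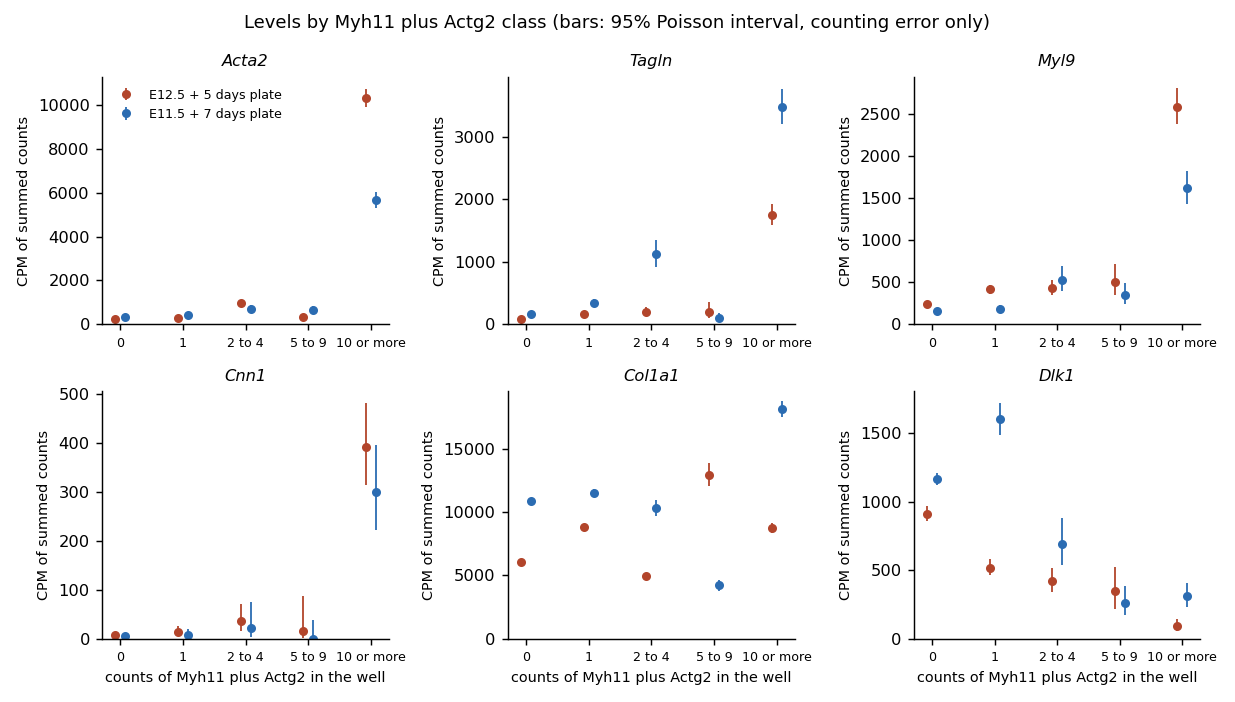
Level in CPM (y axis, linear) of 6 genes in wells grouped by their counts of Myh11 plus Actg2 (x axis, 0 to 10 or more), for the E12.5 + 5 days plate and the E11.5 + 7 days plate; bars are 95% Poisson intervals of the summed count. Acta2, Tagln, Myl9 and Cnn1 are high in the class of 10 or more, Col1a1 shows no order, and Dlk1 is highest in wells with 0 or 1 count.

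All 4 leading contractile genes were higher in the members on both plates. Acta2 was summed at 5031 CPM in members, against 226 CPM in zero wells, of the E12.5 plate (22.3-fold, 19.7 to 25.3), and at 2971 against 357 CPM on the E11.5 plate (8.32-fold, 7.60 to 9.12). Well by well its lowest, median and highest levels were 0, 690 and 21742 CPM in members and 0, 137 and 1425 CPM in zero wells of the E12.5 plate. On the E11.5 plate they were 0, 1314 and 10717 CPM in members and 0, 188 and 3700 CPM in zero wells. The 2 kinds of wells overlapped on both plates: 5 members of the E12.5 plate and 2 of the E11.5 plate had no Acta2 count at all.

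Tagln was 11.0-fold (8.81 to 13.7) higher in members on the E12.5 plate, at 890 against 81.5 CPM, and 11.54-fold (10.2 to 13.1) higher on the E11.5 plate, at 1924 against 167 CPM. It was found in 18 of 32 members, against 28 of 124 zero wells, and in 17 of 19 members, against 108 of 241 zero wells. The highest zero well of the E12.5 plate, at 4313 CPM, exceeded every member of that plate, whose highest stood at 3075 CPM, so Tagln alone did not separate the wells. Cnn1 had the largest ratios of the 4, 29.6-fold (14.4 to 70.5), with 98 counts in 13 members and 8 counts in 7 zero wells, and 31.1-fold (16.0 to 66.1), with 52 counts in 7 members and 11 in 11 zero wells. Myl9, the regulatory light chain of smooth muscle myosin, was 5.76-fold (5.03 to 6.61) higher on the E12.5 plate, at 1394 against 242 CPM, and 6.38-fold (5.50 to 7.40) higher on the E11.5 plate, at 980 against 154 CPM. Every member of the E11.5 plate had a Myl9 count, with 140, 866 and 2953 CPM as lowest, median and highest level, against 0, 0 and 1760 CPM in zero wells.

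Free RNA and depth bear on shares of wells. After each well was thinned to 1000 counts, Cnn1 was left in 15.6% of members and 0.806% of zero wells of the E12.5 plate (40.6% and 5.65% unthinned) and in 15.8% and 0.415% on the E11.5 plate (36.8% and 4.56% unthinned). Acta2 was left in 50% of members, against 16.1% of zero wells, on the E12.5 plate, and in 57.9% against 22.8% on the E11.5 plate; unthinned shares were 84.4% against 69.4% and 89.5% against 77.2%. Leukocytes, which should lack the gene, had an Acta2 count in 4 of 4 wells of the E12.5 plate and 12 of 15 of the E11.5 plate, at median depths of 14214 and 11549 counts, and in 25.0% (0.631 to 80.6) and 20% (4.33 to 48.1) after thinning. The thinned share of zero wells lay below that of leukocytes on the E12.5 plate and above it on the E11.5 plate, within these wide intervals. Of the leukocyte wells, 1 of 4 and 3 of 15 had a Myh11 or Actg2 count, and the 1 on the E12.5 plate had 2 counts and was itself a member. Control wells had such a count in 1 of 15 wells, a single count, on the E12.5 plate and in 0 of 15 on the E11.5 plate. Their median depths were only 129 and 150 counts of nuclear genes. At that depth few of them could show either gene, so these shares do not bound free RNA in the kept wells. Members with 2 or 3 counts were mixed in Acta2, which ran from 0 to 29.1 counts among them on the E12.5 plate and from 0 to 27.1 on the E11.5 plate.

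Both cultured plates carried the same 384 well barcodes. Of the 17 wells with at least 10 counts, 12 had 0 counts of both genes at the same position of the other plate, the highest there was 4, and no position reached 10 on both plates. Wells with 0 counts were common, at 124 of 200 kept wells of the E12.5 plate and 241 of 300 of the E11.5 plate. A position with 0 counts on the other plate is thus no trait of these 17 wells. A member lay at the same position on both plates 4 times, among 32 and 19 members, and the number that position alone would give was not worked out.

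The contractile and cytoskeletal genes were higher as a group. All 27 genes of the list were measured (at least 20 counts in the comparison), and 18 were at least 2-fold higher in members on the E12.5 plate, where 2.81% of all genes measured were. For the E11.5 plate the number was 14, where 4.32% of all genes were. The same 14 were higher on both plates, against 1.02% of the genes measured on both, and none was at least 2-fold lower, which held for 7.07% and 10.7% of all genes and for 1.8% on both plates. The list's median log2 ratio was 1.14 on the E12.5 plate, where all genes had a median of -0.07, and 1.03 on the E11.5 plate, where it was -0.09. Since Myh11 and Actg2 are themselves part of this programme and chose the wells, the direction of the list is no independent support for the name. Summed over the list, the lowest, median and highest member of the E12.5 plate stood at 1586, 9291 and 56797 CPM, against 1614, 5174 and 20204 CPM in zero wells. Members of the E11.5 plate stood at 4120, 11267 and 37992 CPM, against 1285, 5005 and 19969 CPM.

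Within the machinery of contraction the filament proteins led. Tpm1 and Tpm2, tropomyosins that lie along actin, were higher by 3.60-fold (3.20 to 4.07) and 3.50-fold (2.93 to 4.19) on the E12.5 plate, and by 2.87-fold (2.57 to 3.22) and 3.74-fold (3.10 to 4.49) on the E11.5 plate. Mylk, the kinase of the light chain, was 3.26-fold (2.88 to 3.69) and 3.48-fold (3.03 to 3.99) higher. Vcl, vinculin of the focal adhesion, was 3.91-fold (2.98 to 5.15) and 3.17-fold (2.48 to 4.02) higher, and Myl6, the essential light chain, 2.15-fold (1.86 to 2.49) and 2.20-fold (1.88 to 2.57). All of these were lower in rank than Acta2 and Cnn1, and zero wells expressed them plainly: Tpm1 was found in 102 of 124 and 202 of 241 of them. Lmod1, leiomodin of smooth muscle, had 20 counts in 9 members and 1 count in 1 zero well of the E12.5 plate (48.3-fold, 7.73 to 2002), but on the E11.5 plate its 6 member counts lay in 2 wells, and the ratio of 2.47 (0.791 to 6.64) came to 0.457 without the higher of them. The most abundant genes of the list with a lower ratio were Flna, filamin, which cross-links actin in most cells, at 1.90-fold (1.72 to 2.10) and 1.90-fold (1.71 to 2.11), and the tropomyosin Tpm4 at 1.57-fold (1.41 to 1.75) and 1.27-fold (1.12 to 1.43).

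Some genes of mature muscle lay near the zero wells, and the 3 given here were chosen after their values were seen. Des, the muscle intermediate filament desmin, stood at 93.2 against 76.4 CPM on the E12.5 plate (1.22-fold, 0.844 to 1.74) and at 79.9 against 66.6 CPM on the E11.5 plate (1.20-fold, 0.778 to 1.79). Ppp1r14a, an inhibitor of myosin phosphatase, had ratios of 1.08 (0.699 to 1.64) and 0.792 (0.408 to 1.41), and Synpo2, an actin-bundling protein of muscle, 1.46 (0.910 to 2.30) and 0.50 (0.196 to 1.07). Genes of excitation and calcium handling, such as channels, calcium pumps and receptors for contractile hormones, numbered 14 and 16 measured. Of these 1 and 0 were at least 2-fold higher and 0 and 2 lower, and none reached 2-fold in the same direction on both plates. Among all genes 2.81% and 4.32% were higher, 7.07% and 10.7% lower, and 1.02% and 1.8% higher and lower on both. With so few genes measured, these counts do not set the list apart from all genes. Atp2a2, the calcium pump of the sarcoplasmic reticulum, was at 1.09-fold (0.881 to 1.34) and 1.27-fold (1.01 to 1.58). Gucy1a3, a subunit of the nitric oxide receptor, was at 0.768-fold (0.604 to 0.969) and 0.578-fold (0.409 to 0.796). Ednra, a receptor for endothelin, was at 1.08-fold (0.740 to 1.54) and 1.24-fold (0.879 to 1.72). Cav1, caveolin, was 11.6-fold (5.79 to 25.7) higher on the E12.5 plate with 54.3% of its member counts in 1 well, and had a ratio of 1.72 (0.961 to 2.92) on the E11.5 plate.

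**Figure D3:**
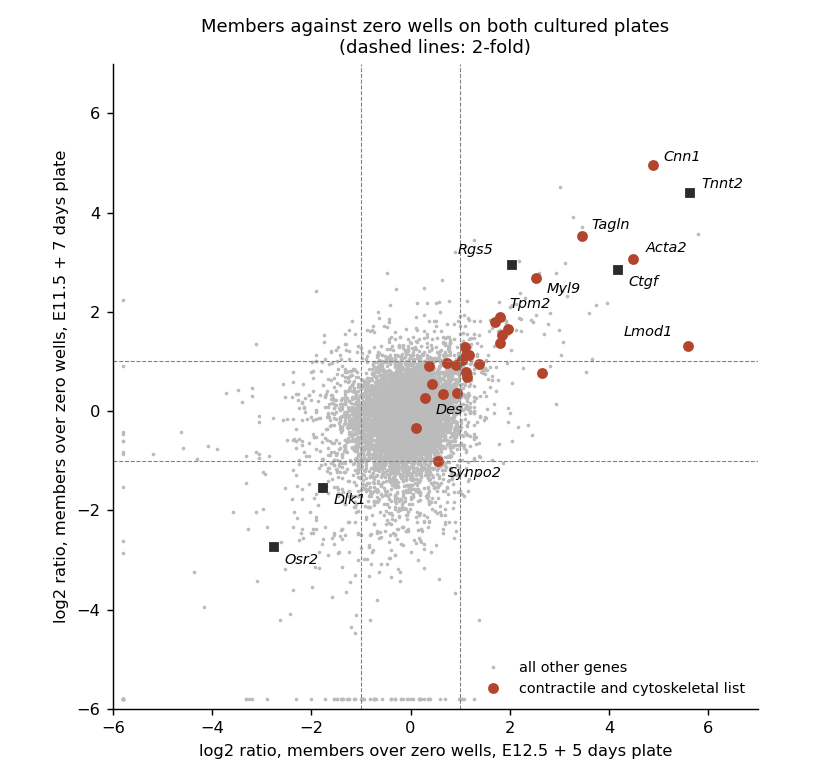
Log2 ratio of members over zero wells for each gene measured on both plates, on the E12.5 + 5 days plate (x axis) and the E11.5 + 7 days plate (y axis); red points are the contractile and cytoskeletal list, black squares are other genes named in the text, dashed lines mark 2-fold, genes without a member count are drawn at the edge, and genes without a count in zero wells are left out. Cnn1, Tagln, Acta2 and Myl9 lie at the upper right, Des near 0 on both axes, and Osr2 and Dlk1 at the lower left.

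Genes that regulate muscle gave a mixed picture. Of 19 measured on the E12.5 plate 5 were at least 2-fold higher, and of 20 on the E11.5 plate 8 were higher and 1 lower; 4 were higher on both. Of all genes 2.81% and 4.32% were higher, 10.7% were lower on the E11.5 plate and 1.02% were higher on both. Myocd, the cofactor myocardin, had 17 counts in 7 members and 5 counts in 4 zero wells of the E12.5 plate (8.21-fold, 2.91 to 28.5), with 58.8% of the member counts in 1 well, and 7 counts in 5 members against 21 in 18 zero wells of the E11.5 plate (2.19-fold, 0.787 to 5.35). Gata6, a transcription factor of smooth muscle and other mesoderm, was 2.15-fold (1.61 to 2.85) and 2.21-fold (1.73 to 2.80) higher. Hopx, a homeodomain protein that binds serum response factor, was 3.02-fold (1.49 to 6.23) and 3.57-fold (2.10 to 5.94) higher, and Fhl1, a LIM-domain protein of muscle, 4.55-fold (2.77 to 7.63) and 8.18-fold (5.19 to 13.0). Serum response factor itself, Srf, was close to the zero wells, at 1.06-fold (0.765 to 1.46) and 1.59-fold (1.15 to 2.17). Nr2f2, a nuclear receptor of mesenchyme and the most abundant gene of the list, was at 0.798-fold (0.728 to 0.874) and 0.938-fold (0.847 to 1.04). Klf4, which represses contractile genes in vascular muscle, was at 0.869-fold (0.655 to 1.14) on the E12.5 plate and 0.405-fold (0.273 to 0.583) on the E11.5 plate.

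Tbx18, the marker of ureteric mesenchyme, was 1.93-fold (1.43 to 2.597) higher on the E12.5 plate and 3.52-fold (2.59 to 4.75) on the E11.5 plate. Tshz3, a further regulator of ureteric muscle, had ratios of 1.48 (1.09 to 1.999) and 0.965 (0.668 to 1.36). Of all genes 2.81% and 4.32% were at least 2-fold higher, 7.07% and 10.7% lower, and 1.02% higher on both plates. Beside these shares, 19 and 20 genes of the hedgehog and BMP pathway were measured. Of them 1 and 2 were at least 2-fold higher, 0 and 1 lower, and 1 was higher on both. That gene was Hhip, a hedgehog-binding target of the pathway, at 4.03-fold (1.65 to 10.4) and 4.28-fold (1.95 to 9.03) on 15 and 13 member counts. Without the wells over 3 times the median it was at 0.870-fold on the E12.5 plate. Gas1, a hedgehog co-receptor and the most abundant gene of the list, was at 1.21-fold (1.04 to 1.40) and 0.998-fold (0.877 to 1.13). Ptch1, the hedgehog receptor and a target of the pathway, had ratios of 0.949 (0.733 to 1.22) and 1.71 (1.32 to 2.18), and Bmp4 1.87 (1.38 to 2.53) and 1.38 (0.958 to 1.93).

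Markers of pericytes and mesangial cells went both ways, and 1 well carried much of the higher part on the E11.5 plate. Of 12 and 13 measured, 1 and 5 were at least 2-fold higher and 5 and 3 lower. Among all genes 2.81% and 4.32% were higher and 7.07% and 10.7% lower. On both plates 1 marker was higher and 2 were lower, against 1.02% and 1.8% of all genes. The median log2 ratio of the list was -0.45 on the E12.5 plate and 0.26 on the E11.5 plate. Rgs5, a pericyte marker that limits G-protein signals, was higher on both, 4.11-fold (3.23 to 5.27) with counts in 13 of 32 members, and 7.68-fold (6.28 to 9.40) with counts in 9 of 19, of which 57.8% lay in 1 well. Pdgfrb, the receptor of mural cells, stood at 115 against 142 CPM on the E12.5 plate (0.810-fold, 0.592 to 1.09) and at 193 against 96.4 CPM on the E11.5 plate (2.002-fold, 1.51 to 2.63). Cspg4, the NG2 proteoglycan, had ratios of 1.08 (0.780 to 1.48) and 3.18 (2.36 to 4.25), and Mcam, an adhesion molecule of vessel walls, 0.735 (0.266 to 1.77) and 3.60 (2.31 to 5.51). Ren1, renin, was rare in members, with 0 counts against 8 in zero wells of the E12.5 plate and 2 counts against 289 in zero wells of the E11.5 plate. Summed over the list, members and zero wells stood at 932 and 881 CPM on the E12.5 plate and at 1644 and 827 CPM on the E11.5 plate. A single member of the E11.5 plate, with 5 counts of Actg2 and none of Myh11, held 42.6% of the list's member counts there, and without it members stood at 1000.4 CPM. The same well had the most Rgs5, Pdgfrb, Cspg4 and Mcam of the members, and without it their ratios on the E11.5 plate were 3.44, 1.49, 1.95 and 2.28. The difference between the plates was not tested.

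Matrix and TGF-beta genes were higher in part. Of 24 and 25 measured genes of the elastic fibre and basement membrane, 6 and 6 were at least 2-fold higher and 4 were on both plates (2.81%, 4.32% and 1.02% of all genes): Eln, Fbln5, Loxl1 and Ltbp1. At least 2-fold lower were 1 and 0 of the list, against 7.07% and 10.7% of all genes. Eln, elastin, was 7.93-fold (6.99 to 9.02) higher on the E12.5 plate, but 73.8% of its member counts lay in 1 well, and it was 2.18-fold without that well. Its ratio on the E11.5 plate was 3.11-fold (2.75 to 3.52), with 56.5% in 1 well, and 1.49-fold without it. Fbln5, which assembles elastic fibres, was 2.54-fold (2.12 to 3.04) and 2.17-fold (1.78 to 2.64) higher, with 15.9% and 40.3% of its member counts in 1 well. Collagen IV differed between the plates, with Col4a1 at 1.12-fold (1.00 to 1.25) and 2.73-fold (2.47 to 3.01), a difference that was not tested. Of 16 TGF-beta and mechanosensing targets measured on each plate, 4 were at least 2-fold higher on each and on both, among them Ctgf, Thbs1 and Itga1. On each plate 1 was at least 2-fold lower, and 0 were lower on both. Among all genes 2.81% and 4.32% were higher and 7.07% and 10.7% lower. Higher and lower on both plates were 1.02% and 1.8% of all genes. Ctgf, a matricellular target of TGF-beta and YAP, stood at 189 against 10.5 CPM (18.0-fold, 10.1 to 35.1) and 193 against 26.8 CPM (7.19-fold, 5.05 to 10.3). Itga1, an integrin that binds collagen, was 3.41-fold (1.76 to 6.76) and 3.07-fold (1.504 to 5.97) higher, but 0.974-fold on the E11.5 plate without its highest well. Itgb1, its partner chain, was at 1.32-fold (1.16 to 1.51) and 1.5045-fold (1.32 to 1.71). Tgfbi, another TGF-beta target, went the other way, at 0.598-fold (0.498 to 0.714) and 0.492-fold (0.389 to 0.616).

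Among all genes, 78 met the conditions for being named as higher on both plates, and the 20 with the largest ratio on the weaker plate held 4 of the contractile list, Cnn1, Tagln, Acta2 and Myl9. Several of the others also belong to muscle cells. Jph2, junctophilin, which couples the sarcoplasmic reticulum to the cell membrane, was 8.69-fold (3.11 to 29.96) and 7.89-fold (3.13 to 20.4) higher on 18 and 12 member counts. Nexn, the actin-binding protein nexilin, was 8.24-fold (4.73 to 15.1) and 5.34-fold (3.41 to 8.33) higher, and Msrb3, a methionine sulfoxide reductase, 4.35-fold (2.98 to 6.41) and 4.49-fold (3.29 to 6.10). Nnmt, a methyltransferase of nicotinamide, had 23 counts in members and 1 in zero wells of the E12.5 plate (55.5-fold, 9.02 to 2288) and was 11.8-fold (5.18 to 28.7) higher on the E11.5 plate. Trac, the constant part of the T cell receptor alpha chain, was 9.66-fold (3.12 to 39.7) and 15.1-fold (6.93 to 35.6) higher on 16 and 23 member counts in 6 wells each, and had 0 counts in the 4 and 15 leukocyte wells. Ptprc, which all leukocytes carry, had 0 counts in members of both plates, although other leukocyte markers stood at 28405 CPM in the E12.5 member that was a leukocyte well. Among the remaining genes by this rule were Specc1, Nuak1, Anxa1, Adarb1, Tm4sf1, Clca3a1 and Col12a1 with Fhl1, Hhip and Ctgf above, and their ratios lay between 3.82 and 18.0.

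Of the genes lower on both plates, 50 met the conditions, and the 10 named had ratios of 0.148 to 0.362. Osr2, a transcription factor of kidney mesenchyme, had 3 counts in members and 49 in zero wells of the E12.5 plate (0.148-fold, 0.0295 to 0.458) and 6 against 265 counts on the E11.5 plate (0.149-fold, 0.0542 to 0.329). Dlk1, a membrane protein of immature mesenchyme, stood at 267 against 912 CPM (0.294-fold, 0.245 to 0.351) and 401 against 1163 CPM (0.344-fold, 0.289 to 0.406), and at 92.2 CPM in the wells with at least 10 counts on the E12.5 plate. Agtr2, the type 2 angiotensin receptor, was at 0.259-fold (0.150 to 0.422) and 0.299-fold (0.169 to 0.492). Lef1, a nuclear effector of Wnt signals, had 6 against 47 counts (0.308-fold, 0.108 to 0.723) and 5 against 94 counts (0.350-fold, 0.111 to 0.846). Bcam, an adhesion molecule that binds laminin, Slc2a12, a glucose transporter, Gramd1b, which carries cholesterol, and Stxbp5, which restrains vesicle fusion, were lower by the same rule. Arhgdib and Plek, the other 2, are genes of blood cells, and leukocyte markers went with them. At least 2-fold lower in members were 4 of 8 leukocyte markers on the E12.5 plate and 9 of 9 on the E11.5 plate. Among all genes 7.07% and 10.7% were lower.

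Most fibroblast and stroma genes lay within 2-fold of the zero wells. Col1a1, the main fibrillar collagen, stood at 7618 against 6055 CPM (1.26-fold, 1.21 to 1.31) and 12253 against 10856 CPM (1.13-fold, 1.09 to 1.17), and Dcn, decorin, at 1.19-fold (1.09 to 1.31) and 1.30-fold (1.20 to 1.40). Of 16 fibroblast and stroma genes measured on each plate, 0 and 1 were at least 2-fold higher and 2 and 2 lower. Among all genes 2.81% and 4.32% were higher and 7.07% and 10.7% lower. Dlk1, given above, was the 1 gene of this list lower on both plates. Mgp, the matrix Gla protein, was the 1 that was higher, at 3.98-fold (3.59 to 4.40) on the E11.5 plate and 1.51-fold (1.36 to 1.67) on the E12.5 plate. Penk, the opioid precursor, was at 0.942-fold (0.858 to 1.03) on the E12.5 plate and 0.254-fold (0.206 to 0.310) on the E11.5 plate. The E12.5 members were not alike in it. Wells with at least 10 counts of Myh11 plus Actg2 had 0 to 48.3 counts of Penk, together below the level of zero wells. The other members had up to 157 counts, together above that level. Of 19 and 20 stromal transcription factors measured, 0 and 2 were at least 2-fold higher and 3 and 2 lower, beside the same shares of all genes. Osr2 alone was lower on both.

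Of hypoxia and glycolysis genes, 4 of 17 on the E12.5 plate and 8 of 17 on the E11.5 plate were at least 2-fold lower. Among all genes 7.07% and 10.7% were lower. Of the list 3 were lower on both plates, where 1.8% of all genes were, and none was higher. The list's median log2 ratio was -0.31 and -0.95. Ero1l, an oxidase of the endoplasmic reticulum induced by low oxygen, was at 0.453-fold (0.258 to 0.754) and 0.371-fold (0.221 to 0.588), and Slc2a3, a glucose transporter, at 0.372-fold (0.195 to 0.656) and 0.314-fold (0.165 to 0.547). Ndrg1, a further hypoxia target, was at 0.453-fold (0.195 to 0.933) and 0.263-fold (0.104 to 0.554). Ldha, lactate dehydrogenase, stood at 1665 against 2121 CPM (0.786-fold, 0.727 to 0.849) and 1594 against 2149 CPM (0.741-fold, 0.679 to 0.808). Proliferation genes were near the zero wells: Mki67 had ratios of 1.14 (0.933 to 1.39) and 1.30 (1.03 to 1.63). The mitotic genes Ccnb1 and Ube2c were the 2 of 18 at least 2-fold higher on both plates, where 1.02% of all genes were. For Ube2c 53.3% and 53.2% of the member counts lay in 1 well, and its ratio was 0.942 on the E11.5 plate without the deep wells. None of 14 immediate early genes, which respond to dissociation, reached 2-fold in either direction on either plate; Egr1 was at 0.928-fold (0.855 to 1.01) and 0.962-fold (0.882 to 1.05).

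**Figure D4:**
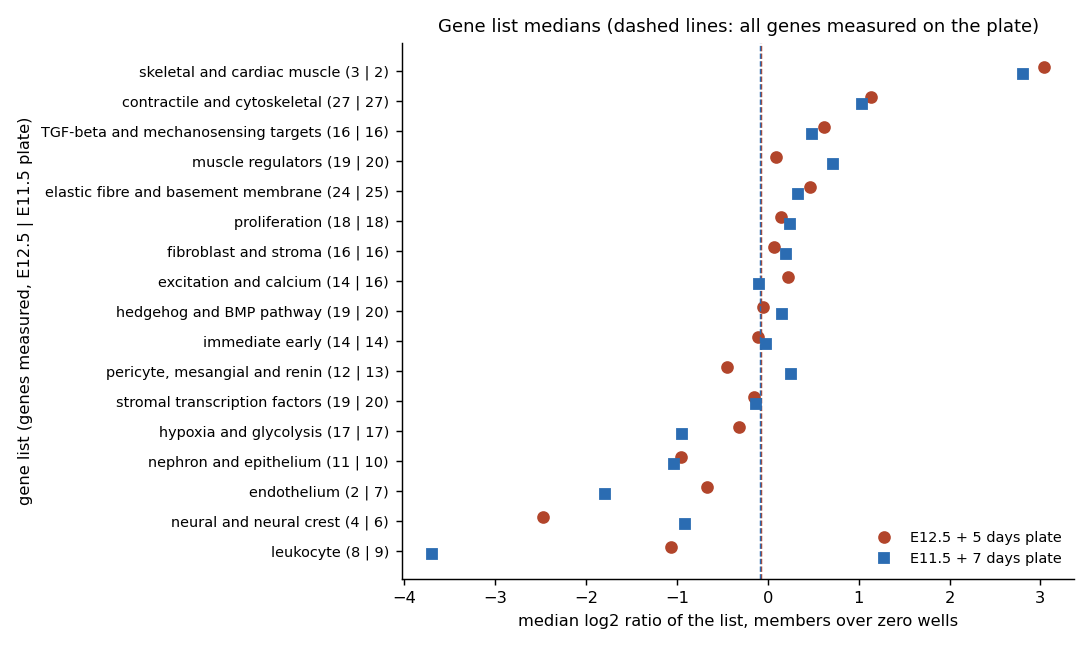
Median log2 ratio of members over zero wells (x axis) for the measured genes of 17 lists, with the number of genes measured on each plate in brackets, on the E12.5 + 5 days plate (circles) and the E11.5 + 7 days plate (squares); dashed lines are the medians of all genes, -0.07 and -0.09. The contractile list lies at 1.14 and 1.03, hypoxia at -0.31 and -0.95, and the skeletal and cardiac muscle list at the top rests on 3 and 2 genes.

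Markers of other cell types were present in members at various levels. Endothelial markers summed to 50.5 CPM in members and 89.3 CPM in zero wells of the E12.5 plate and to 102 and 210 CPM on the E11.5 plate, with 4 of 8 and 1 of 8 genes at 0 in members. Leukocyte markers summed to 253 and 537 CPM on the E12.5 plate, where 91.6% of the member counts came from 1 well, and to 74.4 and 1157 CPM on the E11.5 plate. Neural markers summed to 38.8 and 264 CPM and to 127 and 236 CPM, and nephron and epithelium markers to 288 and 388 CPM and to 185 and 219 CPM. Single wells carried much of several sums. Of the E12.5 neural counts, 83.3% in zero wells and 55.0% in members lay in 1 well each. Without it, zero wells stood at 45.0 CPM and members at 18.4 CPM. On the E11.5 plate 1 well held 60.9% of the members' neural counts (51.3 CPM without it). There 1 well also held 45.0% of the zero wells' endothelial counts (116 CPM without it). Of the members' nephron counts 47.4% and 59.8% lay in 1 well. In the wells with at least 10 counts of Myh11 plus Actg2 the nephron list came to 39.5 and 24.0 CPM. The leukocyte list came to 13.2 and 53.9 CPM there and the neural list to 22.0 and 24.0 CPM. Each lay below its level in all members, but no such well held 10 or more counts of any of these lists. Without the highest member well of the E12.5 plate, its members stood at 21.5 CPM for the leukocyte list. For the neural list they stood at 18.4 CPM, below the 22.0 CPM above. Endothelial markers in the wells with at least 10 counts came to 52.7 and 113.8 CPM. Skeletal and cardiac markers came to 361 and 288 CPM, against 187 and 165 CPM in all members and 34.6 and 32.7 CPM in zero wells. Of skeletal and cardiac markers, 6 of 9 and 7 of 10 were at 0 in these wells, and Tnnt2, cardiac troponin T, was not.

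Tnnt2 had 62.2 counts in 6 members and 3 counts in 3 zero wells of the E12.5 plate (49.9-fold, 16.3 to 249) and 32 counts in 5 members and 10 counts in 6 zero wells of the E11.5 plate (21.0-fold, 10.1 to 48.0). Of the member counts 56.6% and 53.1% lay in 1 well. Actc1, cardiac actin, had 88.2% and 85.7% of its 17 and 7 member counts in 1 well, and its ratio on the E12.5 plate was 0.981 without that well. Tnnt2 was thus high in a few wells, and these were not the wells high in Ctgf. With a minimum of 5 counts, set after the values were seen, 5 of the 17 wells with at least 10 counts of Myh11 plus Actg2 were Tnnt2 wells (3 and 2 by plate), 8 were Ctgf wells (4 and 4), 4 were neither and 0 were both.

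The 5 Tnnt2 wells all had Tbx18, at 5 to 26.1 counts (406 to 795 CPM), and 6 of the 8 Ctgf wells had it too, at up to 17 counts (494 CPM). Of the 4 wells of neither set 2 had Tbx18 as well, at up to 5 counts (518 CPM). The Tnnt2 wells had 0 or 1 count each of Ctgf, Rgs5 and Pdgfrb. Their Myl9 level ran from 2302 to 6669 CPM, against 777 to 2624 CPM in the Ctgf wells. The 8 Ctgf wells all had Pdgfrb (2 to 16 counts), Cspg4 (4 to 22.1 counts) and Cnn1 (4 to 20 counts), and 7 of them had Rgs5, at up to 59.4 counts. Cnn1 was no trait of these wells by level. Its median was 270 CPM there and 553 CPM in the Tnnt2 wells, of which 3 had it, at up to 1658 CPM. Trac was found in 7 of the Ctgf wells and in 1 of the Tnnt2 wells, where it had 1 count. Tnnt2 itself was at 0 or 1 count in all Ctgf wells. Eln ran from 1 to 773.7 counts in Ctgf wells and from 1 to 11 counts in Tnnt2 wells. Acta2 did not separate them, with 218 to 21742 CPM in Tnnt2 wells and 1315 to 17260 CPM in Ctgf wells.

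Depth moves with this split. All 8 Ctgf wells held over 20000 counts (21539 to 43292), and 5 of them were over 3 times their plate's median, while the Tnnt2 wells held 7842 to 36148 counts with a median of 13839, 2 of them over 20000. The deep Tnnt2 well of the E12.5 plate, with 36148 counts, had 1 count of Ctgf. The part of depth, or of more than 1 cell in a well, was not tested. The 4 wells of neither set held 8483 to 17508 counts and 3 to 291.1 counts of Acta2. All 4 had Cspg4 (57.1 to 589 CPM) and 3 of them Rgs5 (up to 1111 CPM), so these 2 genes were not particular to the Ctgf wells. Their medians were 82.7 and 529 CPM, against 220 and 756 CPM in the Ctgf wells.

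**Figure D5:**
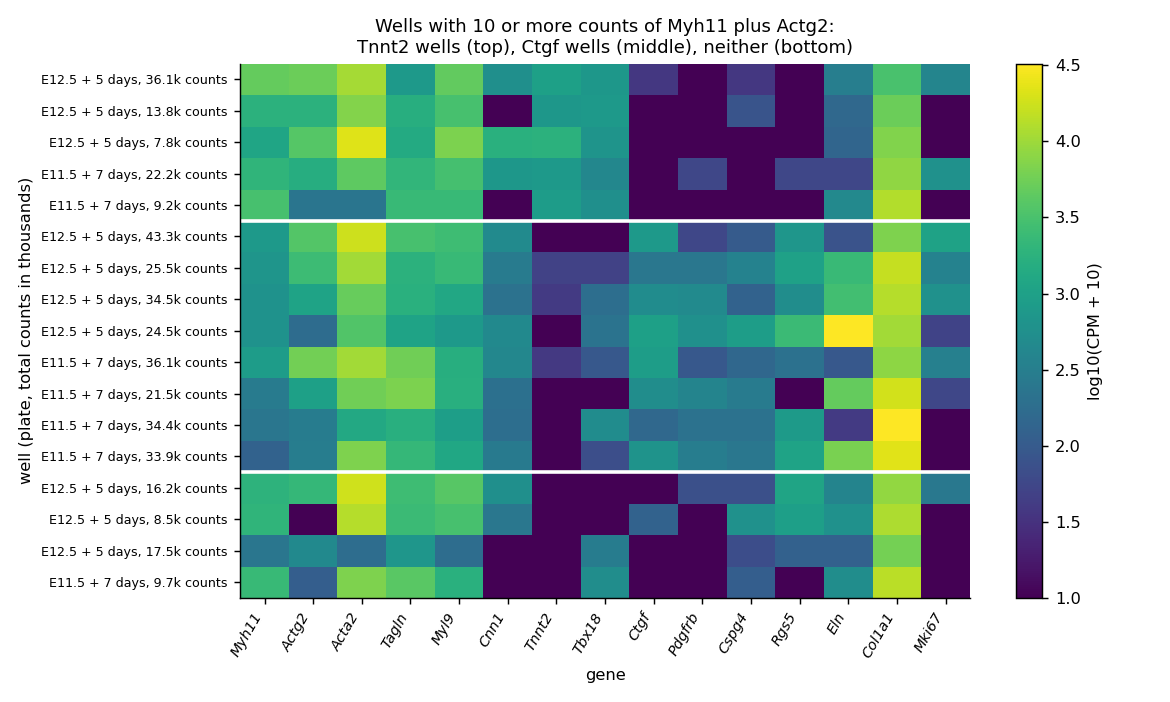
Levels of 15 genes (columns) in the 17 wells with at least 10 counts of Myh11 plus Actg2 (rows, labelled by plate and total counts), as log10 of CPM plus 10; white lines part the 5 Tnnt2 wells, 8 Ctgf wells and 4 wells of neither. Tnnt2 is bright in the top block, Tbx18 is present there in every row and in most rows of the middle block, Ctgf, Pdgfrb and Cspg4 are bright in the middle block, and contractile genes and Col1a1 in most rows of all 3.

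Wells of 5000 to 20000 counts were also looked at alone. There Acta2 was 15.6-fold and 3.27-fold higher in members, Tagln 7.81-fold and 8.20-fold, Myl9 4.69-fold and 5.23-fold and Tnnt2 38.7-fold and 26.6-fold on the E12.5 and E11.5 plates. Cnn1 was 21.9-fold higher on the E12.5 plate and 1.71-fold on the E11.5 plate, there on 1 member count. Tnnt2 on the E11.5 plate rested on wells with 8, 5 and 1 counts of it. This window leaves out all 8 Ctgf wells and 2 of the 5 Tnnt2 wells. Of the E11.5 wells with at least 10 counts of Myh11 plus Actg2, it keeps only those with 23.1 and 30.1. The window thus changes the members together with depth, so it does not bound the part of depth. In it Eln came to 0.825-fold and 1.06-fold, and Ctgf to 5.48-fold and 0.828-fold. Leaving out the wells over 3 times the plate's median instead gave 11.02-fold and 2.42-fold for Eln and 13.55-fold and 2.19-fold for Ctgf. On the E11.5 plate Specc1 came to 0.713-fold, Nuak1 to 0.417-fold, Fhl1 to 0.535-fold, Anxa1 to 0.234-fold and Fbln5 to 0.699-fold in this window. Without the wells over 3 times the plate's median, Acta2 was 17.6-fold and 6.29-fold, Tagln 9.18-fold and 12.2-fold, Cnn1 24.9-fold and 25.5-fold and Myl9 4.82-fold and 7.59-fold higher.

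Reporter transcripts were found in members and in zero wells. tdTomato transcript was found in 18 of 32 members (56.3%, 37.7 to 73.6) and 51 of 124 zero wells (41.1%, 32.4 to 50.3) of the E12.5 plate, but its level was 68.0 against 77.2 CPM (0.881-fold, 0.580 to 1.31). On the E11.5 plate it was found in 12 of 19 members (63.2%, 38.4 to 83.7) and 101 of 241 zero wells (41.9%, 35.6 to 48.4), at 52.4 against 65.8 CPM (0.796-fold, 0.467 to 1.29). The knock-in transcript EGFP_IRES_Cre was found in 53.1% (34.7 to 70.9) of members and 34.7% (26.4 to 43.7) of zero wells of the E12.5 plate, and in 52.6% (28.9 to 75.6) against 22.8% (17.7 to 28.6) on the E11.5 plate. Its level had ratios of 0.958 (0.564 to 1.58) and 1.62 (0.874 to 2.83). A further construct transcript, NeoR, had ratios of 0.743 (0.468 to 1.15) and 0.487 (0.274 to 0.810). Depth also differed, with members the deeper wells, and its part in these shares was not tested.

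Members of the E12.5 plate had more Acta2 than members of the E11.5 plate, 5031 against 2971 CPM (1.69-fold, 1.58 to 1.82), while zero wells had less (0.633-fold). Tagln went the other way in both kinds of wells, at 0.462-fold in members and 0.487-fold in zero wells, and Myl9 was 1.42-fold in members and 1.57-fold in zero wells. Tagln and Myl9 thus differed between the plates alike in members and zero wells. Penk was 4.40-fold higher in members of the E12.5 plate and 1.19-fold in zero wells, Eln 1.92-fold and 0.752-fold, and Mcam 0.141-fold and 0.690-fold. With 1 plate of each, stage, days of culture and plate cannot be told apart.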

How the data were processed

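The authors deposited a table for each plate that gives expected counts (molecular identifiers per gene and well, corrected for repeated draws of 1 identifier). Whole counts had been assumed; the values were used as deposited. The submitters' processing notes name STAR 2.6.1a, featureCounts 1.5.2 and GRCm38.p5. Both cultured plates share a sequencing run by their sample descriptions. A column without a known well barcode (4.21 to 4.27% of a plate) was left out.

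Wells labelled as controls (15 per plate) or as more than 1 cell (42 per cultured plate) were set apart; others were kept with at least 1000 counts of nuclear genes and at most 30% mitochondrial counts. No doublet caller was run. CPM are counts summed over wells per 1000000 counts of nuclear genes. Ratios have exact binomial, levels exact Poisson and shares Clopper-Pearson 95% intervals. Cells are not replicates, and no test was made. A side with 0 counts was set to 3 counts over the group for bounds.

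Genes were measured with at least 20 counts in a plate's comparison and called at 2-fold. Named genes had at least 3 members with a count on each plate and at most 50% of member counts in 1 well: the 20 most higher and 10 most lower, ranked on the weaker plate; the marker genes; and 2 to 6 genes of each of 17 lists. Outside this rule, after their values were seen, were chosen Tnnt2, Tbx18, Rgs5, Eln, Ren1, Ptprc, Actc1, Bmp4, Cav1, Ccnb1, Dcn, Des, Ebf1, Ednra, Ero1l, Fbln5, Gata6, Hopx, Itga1, Lmod1, Loxl1, Ltbp1, Mcam, Mgp, Myl6, Mylk, Myocd, Ndrg1, Ppp1r14a, Ptch1, Slc2a3, Srf, Synpo2, Thbs1, Tpm1, Tpm2, Tshz3, Ube2c and Vcl. Some genes that the rule names are not reported here. Members and lists were chosen with earlier results of these data known. Alternatives were the count minimum (1, 3, 5 or 10), wells over 3 times the median left out, wells of 5000 to 20000 counts alone (the depth window), thinning to 3000 counts, equal weight per well and the gene minimum; chosen after seeing the data were the minimum of 10 and leaving out each gene's highest well. The ratio calculation was tested on simulated data. Tools were Python 3.11.15, numpy 2.4.6, pandas 2.3.3, scipy 1.17.1 and matplotlib 3.10.9.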

Additional observations from a re-analysis of the deposited data

Results flagged for a closer look

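Ebf1, a stromal transcription factor, went in opposite directions on the 2 plates: its ratio of members over zero wells was 0.404 on the E12.5 plate, with 35 counts in 16 members, and 2.56 on the E11.5 plate, with 95.3 counts in 8 members, of which 42.2% lay in 1 well. Cited1, a nephron progenitor gene, had a ratio of 2.42 on the E12.5 plate, where 59.6% of its member counts lay in 1 of 3 wells, and 0 member counts on the E11.5 plate, against 40 counts in zero wells, an upper bound of 0.493 against a floor of 3 counts. Both differences between the plates were not tested.

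The wells labelled as holding more than 1 cell, used in no comparison, also held counts of the genes that chose the members. At least 2 counts of Myh11 plus Actg2 were found in 2 of 38 such wells of the E12.5 plate (5.26%, 0.644 to 17.7) and in 4 of 36 of the E11.5 plate (11.1%, 3.11 to 26.1). The shares among kept single-cell wells were 16.0% and 6.33%.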

How the results depend on the processing

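No paired analysis was possible because each group is 1 plate. Over the alternatives run, 1566 gene ratios stayed within their counting interval, 774 moved out of it and 36 changed direction; 285 list medians held, 53 moved and 1 changed direction; of shares and counts 43 held and 33 moved.

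The share of members, 16.0% and 6.33% at a minimum of 2 counts, was 38.0% and 19.7% at 1, 10.0% on the E12.5 plate at 3, and 6.5% and 3.0% at 5. Genes at least 2-fold higher and lower on the E12.5 plate, 285 and 716, were 445 lower at a minimum of 1, 1100 lower at 3, 436 and 1330 at 5, and 536 and 1545 at 10. With equal weight per well 446 were higher. With genes of at least 5 counts they were 797 and 1573, and of at least 50 counts 106 and 232. On the E11.5 plate, 498 and 1231 became 603 lower at a minimum of 1, 798 higher in the depth window, 1126 higher with genes of at least 5 counts, and 245 and 626 with at least 50. Genes past 2-fold on both plates, 102 higher and 180 lower, were 65 higher without the deep wells, 64 higher in the depth window, 56 and 71 at a minimum of 1, 275 lower at 3, 346 lower at 5, 200 and 444 at 10, 210 and 306 with at least 5 counts, and 49 and 53 with at least 50. The contractile median of the E12.5 plate was 1.79 at a minimum of 10.

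These ratios changed direction on the E12.5 plate: Hhip 0.870 without deep wells; Emcn 1.06 (1.055) at a minimum of 1; Cited1 0.285, 0.346 and 0.443 at 3, 5 and 10 and 0.0472 after thinning; Bcam 1.04 after thinning; Eln 0.825 and Tubb3 1.74 in the depth window; C1qc 2.14 with equal weight per well, where the leukocyte median log2 was 1.39; and Actc1 0.981 without its highest well. On the E11.5 plate they were Lmod1 at 0.851 and Ube2c at 0.942 without deep wells; Itga1 at 0.974 and Lmod1 at 0.457 without their highest well; Ebf1 at 0.996 at a minimum of 10; and Pax2 at 0.672 without deep wells, 0.242 at a minimum of 10, 0.733 after thinning and 0.569 without its highest well. At a minimum of 1 Gramd1b was at 1.05, Slc2a12 at 1.05, Stmn2 at 5.82 and Prph at 7.33. In the depth window Ctgf was at 0.828, Specc1 at 0.713, Nuak1 at 0.417, Fhl1 at 0.535, Anxa1 at 0.234, Ebf1 at 0.920, Fbln5 at 0.699, Itga1 at 0.856, Ube2c at 0.929 and Ednrb at 1.32. After thinning C1qb was at 1.41 and C1qc at 1.47. The cause was not tested. At these depths a gene with few counts per well limits every ratio.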
